A study of Mus musculus with 5 samples.

Results

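The epithelial sodium channel and the mineralocorticoid pathway that regulates it were followed through the cell classes of the mouse kidney by 8 genes, taken by symbol from the 16934 gene symbols that the 5 deposited count tables list between them. All 8 were listed in each table. The genes were the 3 channel subunits Scnn1a, Scnn1b and Scnn1g, the glucocorticoid-inactivating enzyme Hsd11b2, the mineralocorticoid receptor Nr3c2, the kinase Sgk1, the corticosteroid-induced leucine zipper gene Tsc22d3 and the ubiquitin ligase Nedd4l. They were chosen by name and not by a cut on their measured values, but with earlier results of these data known.

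The data were single-cell Drop-seq libraries, in which each mRNA captured in a droplet carries a unique molecular identifier (UMI), so that the UMI count of a gene in a cell counts captured molecules. There was 1 library each from inner medulla, outer medulla and cortex and 2 from whole kidney, all from mice labelled wild type, of a strain given as C56BL/6N. The labels used here give no age, sex, treatment or number of animals, and they do not say whether the libraries came from separate animals, so spread between libraries may be technical. Kidneys were perfused cold, minced, digested with a protease at low temperature, fixed in methanol and stored frozen before droplets were made.

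Aldosterone enters the cells of the distal nephron and binds the mineralocorticoid receptor, which then acts as a transcription factor. Glucocorticoids bind the same receptor, and the enzyme made from Hsd11b2 inactivates them, which leaves the receptor open to aldosterone. The channel that takes up sodium at the luminal membrane is built from the alpha, beta and gamma subunits made from Scnn1a, Scnn1b and Scnn1g. The ligase made from Nedd4l tags the channel for removal, and the kinase made from Sgk1, itself a corticosteroid-induced gene, phosphorylates that ligase and so keeps the channel at the surface. The segments known for this pathway are the late distal convoluted tubule, the connecting tubule and the principal cells of the collecting duct.

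The promoter windows below are printed because Sgk1 is the member with a palindromic corticosteroid response element in its window, and because Scnn1g and Scnn1b are neighbours that are set side by side in the results. They are the 250 bases before a transcription start, from RefSeq on GRCm38.p6. The tables carry symbols only, so no coordinate of the deposited data was used. Windows were found for 5 of the 8 genes, 12 windows in all. The motif searched was the half-site AGAACA, 3 bases of any kind, then TGTTCT, which reads the same on both strands.
Sgk1, chr10:21993640-21993889 (+): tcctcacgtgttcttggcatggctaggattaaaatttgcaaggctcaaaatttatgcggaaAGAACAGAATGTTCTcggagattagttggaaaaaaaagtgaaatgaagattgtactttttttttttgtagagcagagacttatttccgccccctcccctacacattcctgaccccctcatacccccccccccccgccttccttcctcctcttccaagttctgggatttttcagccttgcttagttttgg
Scnn1g, chr7:121734229-121734478 (+): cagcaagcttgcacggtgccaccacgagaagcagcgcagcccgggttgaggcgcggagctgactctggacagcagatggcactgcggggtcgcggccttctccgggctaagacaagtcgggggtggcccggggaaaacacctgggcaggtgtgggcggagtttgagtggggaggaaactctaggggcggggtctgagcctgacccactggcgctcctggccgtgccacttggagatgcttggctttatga
Scnn1b, chr7:121864788-121865037 (+): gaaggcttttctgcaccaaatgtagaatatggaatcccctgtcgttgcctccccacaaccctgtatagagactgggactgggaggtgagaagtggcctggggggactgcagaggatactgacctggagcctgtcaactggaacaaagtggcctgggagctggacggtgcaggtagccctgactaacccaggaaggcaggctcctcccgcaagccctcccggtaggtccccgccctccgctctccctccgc
The capitals in the Sgk1 window mark the match, which ends 174 bases before the start. It was in 1 of the 6 Sgk1 windows. Of 32851 windows of this length in the table, 3 held the motif (0.0091%), and 127 (0.3866%) held the looser form G, any base, ACA, 3 bases of any kind, TGT, any base, C, which overlaps it and was searched on both strands. Neither form was in the Scnn1g or Scnn1b window, and their starts lie 130559 bases apart on the same strand, with GC contents of 65.2% and 60.8%. A match of letters is a description of the sequence and does not show binding.

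A barcode counted as a cell when at least 200 genes were detected in it, and 12099 were kept, 894 from inner medulla, 2422 from outer medulla, 3070 from cortex, 3304 from whole kidney 2 and 2409 from whole kidney 1. Counted before 22 marked doublets were removed, the median depth was 440 to 517 UMIs a cell in each library, and the total per library lay between 520663 UMIs in inner medulla and 2886013 in whole kidney 2. The 8 genes and the related gene lists were held out of the clustering and the class markers, so that the classes do not rest on them. Clusters were named only for their likeness to marker lists: principal-like, connecting-tubule-like and so on, written without that ending from here on. Levels are UMIs of a gene per 1000000 UMIs of the same class in the same library (CPM, counts per 1000000), and a class entered with at least 30 cells and 20000 UMIs. Intervals are exact at 95% and cover counting error only. Few cell barcodes (6) were shared between libraries.

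The principal class held 477 cells in inner medulla, 167 in outer medulla, 61 in cortex, 66 in whole kidney 2 and 55 in whole kidney 1. Its summed principal markers, which include Aqp2, Aqp3 and Fxyd4, reached 25192 to 48668 CPM, and all 11 were above 0 except 2 in inner medulla. In 421 of the 477 inner medullary cells the class was a cluster of its own, led by Aqp4 and Plet1. The connecting tubule class held 40, 194, 165 and 154 cells in outer medulla, cortex, whole kidney 2 and whole kidney 1, and the distal convoluted class held 108, 201, 184 and 156. Inner medulla gave 1 connecting tubule cell and 4 distal convoluted cells and is absent from comparisons of those classes. The distal convoluted class was a single cluster, led by Pvalb and Slc12a3. Late distal convoluted tubule had no class of its own, so its cells may lie in either of these classes.

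The alpha subunit gene Scnn1a was spread over the whole distal nephron. Over the 4 libraries other than inner medulla its level averaged 210 ± 86.3 CPM in intercalated cells, 204 ± 59.3 in connecting tubule, 166 ± 16.4 in distal convoluted tubule, 159 ± 105 in principal cells and 142 ± 30.4 in thick ascending limb (SD, n = 4 libraries each). Neighbours in that order differed by less than their spread. In proximal tubule, by far the largest class, Scnn1a stayed at 0.407 to 3.34 CPM in those libraries.

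Of these 5 classes the SD of Scnn1a was lowest in distal convoluted tubule, which also had the most UMIs, 410073. The SDs include counting error, which was not parted from spread between libraries. In distal convoluted tubule Scnn1a had 10 UMIs in outer medulla, 23 in cortex, 17 in whole kidney 2 and 17 in whole kidney 1, which are 173, 163, 144 and 182 CPM. Thick ascending limb, the segment before it, had 121, 183, 116 and 147 CPM in the same libraries, and the groups overlapped. The difference was 0.37 ± 0.42 on the log2 scale (SE; adjusted p = 0.81 in edgeR's quasi-likelihood test with Benjamini-Hochberg adjustment, library as a block).

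The beta and gamma subunit genes were limited to fewer classes. Scnn1b had 34 UMIs in principal cells of outer medulla, 17 in cortex, 19 in whole kidney 2 and 12 in whole kidney 1, which are 415, 391, 434 and 414 CPM. Connecting tubule had 278, 320, 247 and 294 CPM in the same order of libraries, lower than principal cells in each of them. Intercalated cells averaged 79.5 ± 55.2 CPM and distal convoluted tubule 11.7 ± 13.6 CPM. Thick ascending limb had 0 UMIs of 178065, which allows up to 16.8 CPM. Here and below, the limit for a count of 0 is 3 counts over the total, not the end of the exact interval.

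Scnn1g, which makes the gamma subunit, had 452, 598, 274 and 276 CPM in principal cells of outer medulla, cortex, whole kidney 2 and whole kidney 1, against 92.6, 205, 190 and 255 CPM in connecting tubule. The lowest principal cell value lay above the highest connecting tubule value. No UMI of Scnn1g was counted in distal convoluted tubule among 410073 UMIs, in thick ascending limb or in intercalated cells of these libraries. For distal convoluted tubule that allows up to 7.32 CPM.

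**Figure D1:**
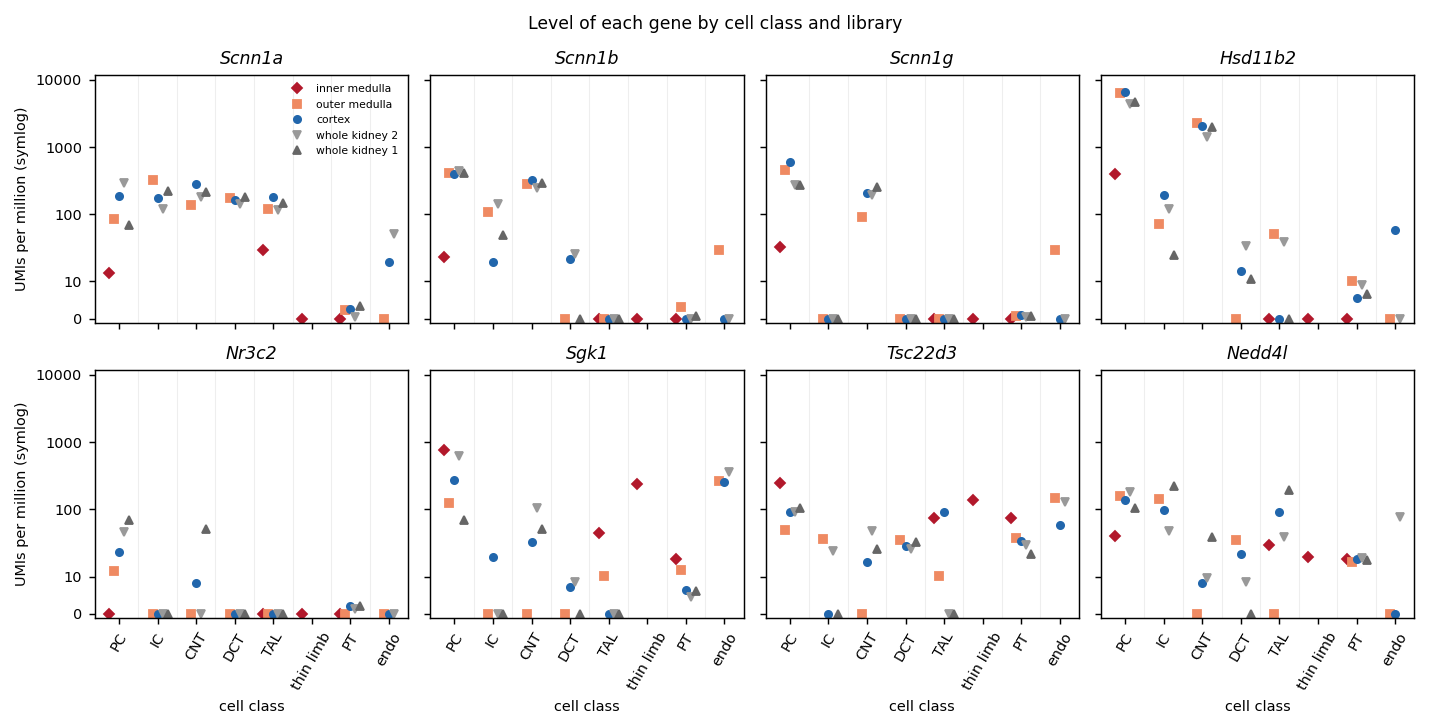
Level of each of the 8 genes (CPM, axis linear to 10 and logarithmic above) in 8 cell classes, with 1 point for each library in which the class entered. PC, principal cell; IC, intercalated cell; CNT, connecting tubule; DCT, distal convoluted tubule; TAL, thick ascending limb; PT, proximal tubule; endo, endothelial. Outside inner medulla the Scnn1a points in PC, IC, CNT, DCT and TAL lie between 69.0 and 322 CPM, with inner medullary points lower, at 13.2 in PC and 29.4 in TAL, while Scnn1b, Scnn1g and Hsd11b2 stand high in PC and CNT, apart from the inner medullary PC point.

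Hsd11b2 and the beta and gamma subunit genes set the connecting tubule class apart from the distal convoluted class. Late distal convoluted tubule was not resolved, so a low level in that class is no statement about every part of the segment. Of the 8 genes, 4 were higher in connecting tubule than in distal convoluted tubule and none was lower, where 2.24% of the 7606 genes tested were higher, 2.42% lower and 4.65% passed in either direction. The median of the 8 genes, with those at 0 in distal convoluted tubule set to their bound, was 2.27 on the log2 scale, against 0.01 over all genes. The 4 genes were Hsd11b2, Scnn1b, Scnn1g and Sgk1.

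Hsd11b2 had 49 UMIs in connecting tubule of outer medulla, 251 in cortex, 149 in whole kidney 2 and 158 in whole kidney 1, against 0, 2, 4 and 1 in distal convoluted tubule. The groups lay far apart. The fitted difference was 6.79 ± 0.33 on the log2 scale (SE; adjusted p = 4.38e-92 in edgeR's quasi-likelihood test with Benjamini-Hochberg adjustment), and the sums stood at a ratio of 109 (52.5 to 272). P-values of this size rest on a spread borrowed over all genes and not on 4 libraries alone. The same holds for every SE of a fitted difference given here, which was derived from the same fit. Such an SE does not measure a gene's own spread between libraries.

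Scnn1b was 4.32 ± 0.49 higher on the log2 scale (SE; edgeR adjusted p = 7.05e-16), with summed counts of 94 UMIs in connecting tubule and 6 in distal convoluted tubule, a ratio of 19.6 (8.70 to 54.9). Scnn1g, with 67 UMIs against 0, was at least 28.0-fold higher (a floor of 3 counts over the group; edgeR adjusted p = 2.04e-15). For both genes the groups did not overlap. Scnn1a did not pass: 73 against 67 UMIs and a difference of 0.46 ± 0.32 (edgeR adjusted p = 0.58).

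Sgk1 passed with far fewer molecules. Connecting tubule had 0, 4, 11 and 4 UMIs in outer medulla, cortex, whole kidney 2 and whole kidney 1, against 0, 1, 1 and 0 in distal convoluted tubule, so the groups overlapped at 0. The difference was 3.48 ± 0.90 on the log2 scale (SE; edgeR adjusted p = 0.00434). Without whole kidney 2 it was 3.28 (adjusted p = 0.238), and with the cells of the highest 5% of doublet scores removed it was 3.10 (adjusted p = 0.0685), and with classes from marker scores it was 1.00 (adjusted p = 0.782). Tsc22d3 (9 against 12 UMIs), Nedd4l (5 against 6) and Nr3c2 (5 against 0; edgeR adjusted p = 0.192) did not pass.

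Principal markers moved with these genes: their sum was 2568 to 3896 CPM in connecting tubule and 149 to 330 CPM in distal convoluted tubule, with 2 or 3 of 11 at 0 in connecting tubule and 4 to 7 of 11 at 0 in distal convoluted tubule. Their part in the result was not tested. Free RNA, estimated from proximal markers, made up 13.7% to 36.8% of connecting tubule UMIs and 13.2% to 19.9% of distal convoluted UMIs.

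Between principal cells and connecting tubule, 3 of the 8 genes were higher in principal cells and none was lower, where 2.2% of all genes tested were higher, 3.27% lower and 5.47% passed in either direction. The median of the 8 was 1.12 on the log2 scale, against -0.04 over all genes. Hsd11b2 had 6342, 6529, 4404 and 4729 CPM in principal cells of outer medulla, cortex, whole kidney 2 and whole kidney 1, against 2268, 2058, 1417 and 2018 CPM in connecting tubule. Every library showed the step, which was 1.23 ± 0.16 on the log2 scale (SE; edgeR adjusted p = 6.28e-12).

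Nedd4l, the ligase that removes the channel, was low in connecting tubule, and not only there. Over the 4 libraries it averaged 14.0 CPM in connecting tubule, 16.1 in distal convoluted tubule and 17.8 in proximal tubule. Nedd4l had 13, 6, 8 and 3 UMIs in principal cells, against 0, 1, 1 and 3 in connecting tubule, in the same order of libraries. In CPM these are 159, 138, 183 and 104 against 0, 8.20, 9.51 and 38.3, with no overlap. The difference was 3.01 ± 0.68 (SE, edgeR adjusted p = 0.000548), and with the highest 5% of doublet scores removed it was 2.47 (adjusted p = 0.069). Under edgeR's default filter on low counts, which leaves 5 of the 8 genes and drops Nedd4l, 2 passed in this contrast. The Nedd4l call thus needs a filter below the default.

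Sgk1 had 122, 276, 616 and 69.0 CPM in principal cells, against 0, 32.8, 105 and 51.1 CPM in connecting tubule. It was higher in principal cells of each library, but the groups overlapped, and whole kidney 2 was the highest library in both classes. The difference was 1.86 ± 0.47 on the log2 scale (SE; edgeR adjusted p = 0.00337). Without cortex the adjusted p was 0.0668, and without whole kidney 2 it was 0.214.

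The channel subunits did not pass between these neighbours. Differences of principal cells minus connecting tubule on the log2 scale were 0.18 ± 0.32 for Scnn1b (edgeR adjusted p = 0.886), 0.69 ± 0.35 for Scnn1g (adjusted p = 0.317) and -0.76 ± 0.38 for Scnn1a (adjusted p = 0.302). Scnn1b and Scnn1g values of principal cells all lay above those of connecting tubule before the fit's scaling, with ratios of summed counts of 1.44 (1.06 to 1.96) and 2.04 (1.46 to 2.86). When each cell took the class of its own highest marker score, both passed, at 1.21 (edgeR adjusted p = 0.00437) and 1.39 (adjusted p = 0.00278). Markers of connecting tubule reached 929 to 6024 CPM in principal cells and 112927 to 149273 CPM in connecting tubule.

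Against intercalated cells, which share the ducts with principal cells and secrete acid or base, 4 of the 8 genes were higher in principal cells and none was lower, where 3.46% of all genes were higher, 3.34% lower and 6.8% passed in either direction. The median of the 8, with genes at 0 in intercalated cells at their bound, was 2.49 on the log2 scale, against 0.09 over all genes. Hsd11b2 was 5.62 ± 0.27 higher (SE; edgeR adjusted p = 6.07e-93), with 1133 UMIs in principal cells against 18 in intercalated cells. Of those 18, 10 lay in 1 cell of cortex.

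Scnn1b was 2.44 ± 0.46 higher in principal cells on the log2 scale (SE; edgeR adjusted p = 5.67e-06). It was not missing in intercalated cells, which had 3, 1, 6 and 2 UMIs, or 107, 19.6, 142 and 49.4 CPM, in outer medulla, cortex, whole kidney 2 and whole kidney 1. Scnn1g (83 UMIs against 0) was at least 22.6-fold higher (edgeR adjusted p = 1.83e-13). Sgk1 was 5.23 ± 0.88 higher, with 51 UMIs against 1 (SE; edgeR adjusted p = 2.13e-07).

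Scnn1a and Nedd4l were detected in both cell kinds of the ducts and did not pass between them. Scnn1a had 9, 9, 5 and 9 UMIs in intercalated cells of outer medulla, cortex, whole kidney 2 and whole kidney 1, and its difference was -0.33 ± 0.44 (SE; edgeR adjusted p = 0.798). Nedd4l averaged 146 ± 33.5 CPM in principal cells and 128 ± 74.3 CPM in intercalated cells (SD, n = 4 libraries each), a difference of 0.34 ± 0.51 (SE; edgeR adjusted p = 0.83). A p that misses the threshold does not show equal levels. Tsc22d3, with 15 UMIs in principal cells and 2 in intercalated cells, was 2.54 ± 0.99 (SE; edgeR adjusted p = 0.105).

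Between distal convoluted tubule and thick ascending limb none of the 8 genes passed edgeR's quasi-likelihood test, where 3.59% of all genes did, 2.04% higher and 1.55% lower. DESeq2 called none either. Scnn1b alone had an unadjusted p under 0.05 (edgeR adjusted p = 0.37), with 6 UMIs in distal convoluted tubule and 0 in thick ascending limb. With 2 genes at 0 in both classes left out, the median of the other 6 was -0.15, against 0.10 over all genes.

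**Figure D2:**
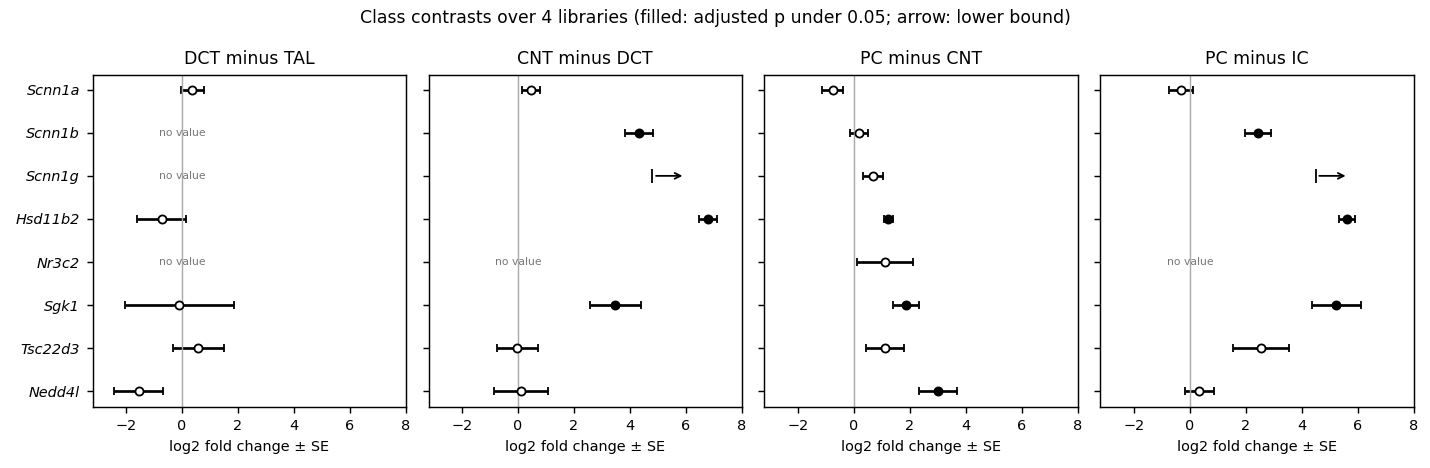
Difference of each gene between classes on the log2 scale (horizontal axis), in 4 panels: DCT minus TAL, CNT minus DCT, PC minus CNT and PC minus IC. Bars are SEs derived from edgeR's fit, which borrows spread over all genes, and do not show the spread between libraries. Filled points passed an adjusted p of 0.05, arrows start at the lower bound for genes at 0 in the second class, and "no value" marks genes with no fold change. Hsd11b2 stands to the right in 3 panels, at 6.79, 1.23 and 5.62, and Scnn1a lies between -0.76 and 0.46 in all 4.

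The mineralocorticoid receptor gene was at the edge of detection. Only 21 UMIs of Nr3c2 were counted in the 5 libraries, doublets included, 0 in inner medulla, 1 in outer medulla, 6 in cortex, 5 in whole kidney 2 and 9 in whole kidney 1. Principal cells had 6 of them outside inner medulla (30.3 CPM), connecting tubule had 5 (15.3 CPM) and proximal tubule had 10 (1.39 CPM). The count of 0 in distal convoluted tubule allows up to 7.32 CPM, and that in inner medullary principal cells up to 9.91 CPM.

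Connecting tubule was not uniform. At a finer clustering (resolution 2.0 in place of 1.0), 109 of its cells joined the principal class and 442 stayed. The cells that joined had 4685 CPM of Hsd11b2 (4151 to 5268), against 1230 CPM (1101 to 1371) in those that stayed. They held 16 of the 19 Sgk1 UMIs of the class, or 269 CPM (154 to 436) against 11.3 CPM (2.32 to 32.9).

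Scnn1b was 537 CPM (368 to 759) in the cells that joined and 233 CPM (178 to 298) in those that stayed, while Scnn1a (285 and 214 CPM) and Scnn1g (269 and 191 CPM) had overlapping intervals. Nedd4l stayed low in both, at 33.6 and 11.3 CPM. With the finer classes, which leave 3 libraries, Sgk1 no longer passed between connecting and distal convoluted tubule, at 1.07 on the log2 scale (edgeR adjusted p = 0.858). Between principal cells and connecting tubule it was 4.31 (edgeR adjusted p = 1.35e-07). The cells were parted by their other genes, so these are descriptions with no test.

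**Figure D3:**
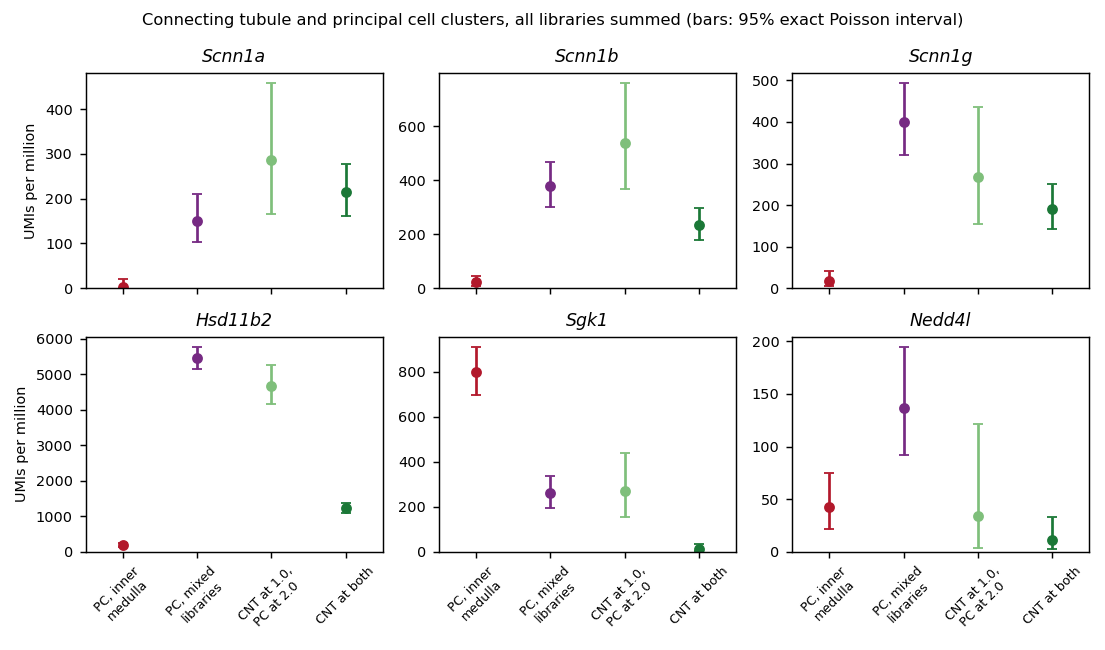
Level of 6 genes (CPM, 95% exact Poisson intervals) in the inner medullary principal cluster (424 cells), the principal cluster of mixed libraries (402), the connecting tubule cells that joined the principal class at resolution 2.0 (109) and those that stayed (442), all libraries summed. For Hsd11b2 the 109 cells, at 4685 CPM, lie near the mixed principal cluster at 5458 CPM. Sgk1 is lowest in the 442 cells that stayed, at 11.3 CPM.

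Subunits were rarely caught together in 1 cell at this depth. At least 1 UMI of any subunit was seen in 36.7% of 349 principal cells outside inner medulla, with 101 cells showing 1 subunit, 23 showing 2 and 4 showing all 3. In connecting tubule it was 28.9% of 553 cells, with 129, 29 and 2. Distal convoluted tubule had 61 cells of 649 (9.40%), all with a single subunit, and intercalated cells had 38 of 255, 36 of them with a single one.

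Principal cells had a median depth of 382 to 498 UMIs per library, against 507 to 536 in proximal tubule. Proximal tubule, which should lack the channel, gave the background: 24 of its 8235 cells (0.291%) had a UMI of any subunit. For Hsd11b2 the share of cells with a UMI was 86.2% in these principal cells (301 of 349) and 42.3% in connecting tubule (234 of 553), against 0.546% in proximal tubule. After thinning to 300 UMIs a cell, the principal and connecting tubule shares were 78.9% and 32.2%.

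**Figure D4:**
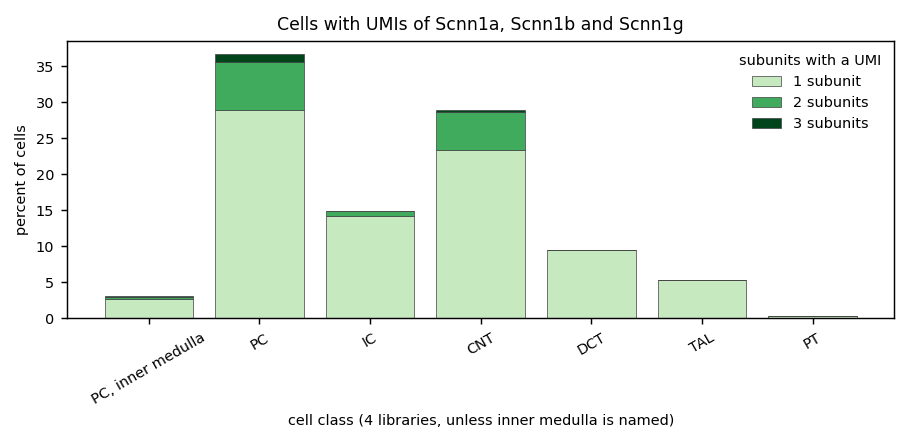
Share of cells (percent) with UMIs of 1, 2 or all 3 sodium channel subunit genes, stacked, by class, over 4 libraries or, where named, in inner medulla alone. PC outside inner medulla reach 36.7% and CNT 28.9%, and of the classes drawn, PC, CNT and IC hold cells with more than 1 subunit (endothelial cells, not drawn, had 1 such cell of 200). PC of inner medulla reach 3.14% and PT 0.291%.

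Within the principal class the members split into those lower and those higher in inner medulla. Of its 477 inner medullary cells, 421 fell in a cluster with no cell of outer medulla or cortex. The regional ratios thus compare mostly different clusters, and the part of cell kind in the pattern was not tested. There was 1 library for each region, so no test was possible and ratios have no replicate check. Of the 8 genes, 6 had at least 20 UMIs in inner and outer medulla together: 4 were past 2-fold lower in inner medulla, where 9.37% of 3842 genes were, and 2 past 2-fold higher, where 19.6% were. The median of the 6 was -2.60 on the log2 scale, against 0.17 over all genes measured. The inner medullary sum held 302806 UMIs and the outer medullary sum 81840, so genes high in inner medulla reached 20 UMIs more readily. The cortex sum, at 43495 UMIs, was smaller still. Sgk1 and Tsc22d3 reached 20 through inner medulla, with 10 and 4 UMIs in outer medulla. The shares over all genes are open to the same selection.

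Scnn1b had 7 UMIs in inner medulla and 34 in outer medulla, 23.1 against 415 CPM, and was 18.0-fold lower (7.84 to 48.0). Scnn1g was 13.7-fold lower (6.67 to 30.9) and Hsd11b2 16.0-fold lower (13.1 to 19.7; 396 against 6342 CPM). Nedd4l, with 12 UMIs against 13, was 4.01-fold lower (1.69 to 9.61). Scnn1a had only 4 UMIs against 7.

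The 2 genes that were higher are both known as corticosteroid-induced. Klf9, the 1 gene measured of 6 on the separate corticosteroid-induced list, was not past 2-fold against outer medulla and was past 2-fold lower against cortex. Both Klf9 intervals, given below, span no change. Whether corticosteroids had a part in these levels was not tested. Sgk1 had 230 UMIs in inner medullary principal cells and 10 in outer medullary ones, 760 against 122 CPM, a ratio of 6.22 (3.32 to 13.1). Tsc22d3 had 74 against 4 UMIs, 244 against 48.9 CPM, a ratio of 5.0 (1.87 to 18.8). Against cortex, where 5 genes were measured, 2 were past 2-fold higher and 3 past 2-fold lower (28.8% and 10.5% of genes were), and the Tsc22d3 ratio was 2.66 (0.995 to 10.0).

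A UMI of Sgk1 was seen in 33.8% of inner medullary principal cells (161 of 477), against 4.19% in outer medulla (7 of 167), and in 18.4% against 1.61% after thinning. The share for Hsd11b2 was 11.9% in inner medulla. These cells came mostly from different clusters. Of the inner medullary cells, 56 fell in the cluster that holds the principal cells of the other regions, and these differed from the rest.

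Those 56 cells had 68 UMIs of Hsd11b2, or 2875 CPM (2233 to 3645), and 7 of Sgk1, or 296 CPM (119 to 610). The other 421 had 52 UMIs of Hsd11b2, or 186 CPM (139 to 244), and 223 of Sgk1, or 799 CPM (697 to 911). Within the shared cluster the Sgk1 interval of the 56 cells thus held both the cortex value (276 CPM) and the outer medullary value (122 CPM). Hsd11b2 of the 56 cells lay between the other inner medullary cells and the outer medulla. Scnn1g had 5 UMIs in each set, 211 CPM in the 56 cells and 17.9 CPM in the 421. The inner medulla library also held 90 proximal tubule cells, 10.1% of its cells. Whether the 56 cells were carried over from outer medulla in the dissection was not tested.

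Outer medulla and cortex were close, with 4 genes measured in principal cells. The ratio of outer medulla to cortex was 0.971 (0.839 to 1.13) for Hsd11b2, 1.06 (0.578 to 2.03) for Scnn1b and 0.756 (0.446 to 1.30) for Scnn1g. Sgk1 alone was past 2-fold lower, at 2.26-fold (0.894 to 5.83), where 5.65% of genes were past 2-fold lower and 8.2% higher. Connecting tubule, with 40 cells in outer medulla, had 2 of 4 genes past 2-fold lower there than in cortex (12.9% of genes were, and 6.55% past 2-fold higher): Scnn1a at 2.01-fold (0.631 to 10.2) and Scnn1g at 2.21-fold (0.552 to 19.3).

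The pair of whole kidney libraries shows how far Sgk1 can move between libraries of 1 kind. Principal cells had 27 UMIs in whole kidney 2 and 2 in whole kidney 1, 616 against 69.0 CPM, a ratio of 8.92 (2.24 to 77.4). The other 3 genes measured there had ratios of 0.931 (Hsd11b2), 1.05 (Scnn1b) and 0.992 (Scnn1g), and 6.61% of genes were past 2-fold higher and 4.17% lower. Its interval overlapped that of the Sgk1 ratio of inner to outer medulla.

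**Figure D5:**
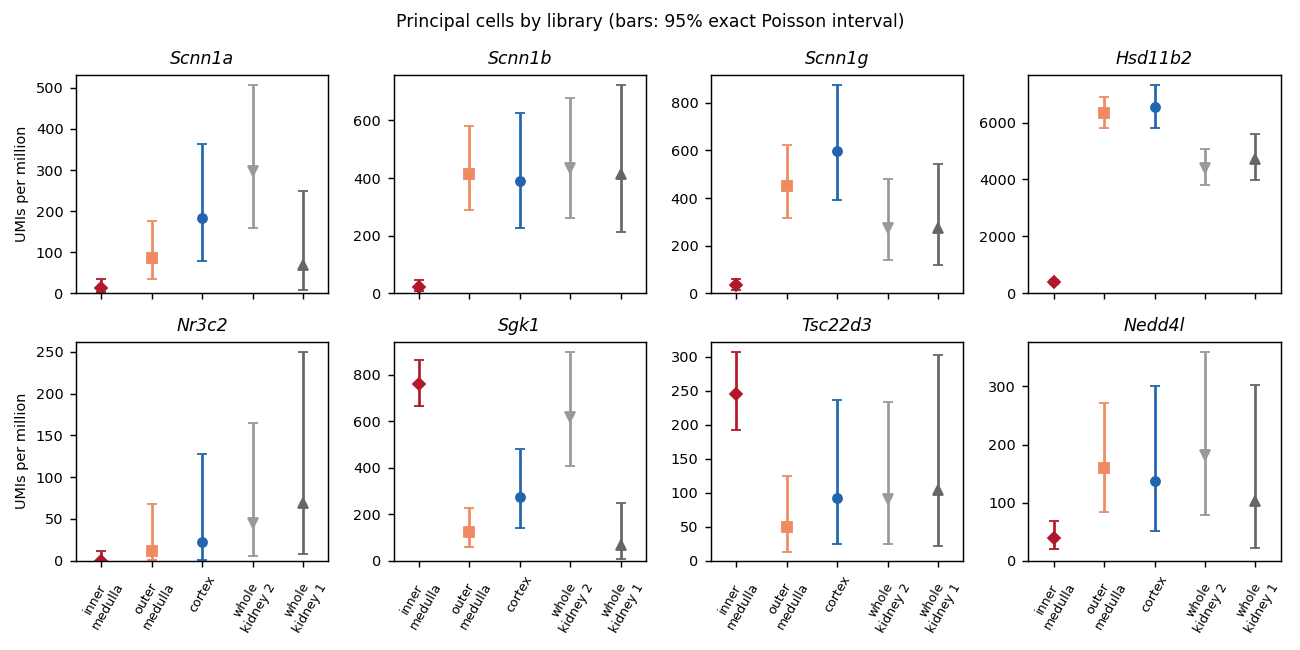
Level of each gene in principal cells of each library (CPM, 95% exact Poisson intervals, axes from 0). Scnn1b, Scnn1g and Hsd11b2 are lower in inner medulla than in any other library (for Hsd11b2, 396 against 4404 to 6529). Sgk1 is high in inner medulla (760) and whole kidney 2 (616), and Tsc22d3 is high in inner medulla (244).

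Other measures moved with the inner medullary library. The sum of 14 immediate early and stress genes was 1823 CPM (1674 to 1982) in its principal cells and 593 to 1070 CPM in those of the other libraries. Jund reached 1001 against 293 CPM in outer medulla. In whole kidney 2, where Sgk1 was high as well, the sum was 593 CPM, against 1070 CPM in whole kidney 1. Estimated free RNA was 2.60% of principal cell UMIs in inner medulla and 12.7% to 21.4% elsewhere, and urothelial markers, second by score in the inner medullary cluster, were at 102 CPM there against 0 to 932 CPM. Their part in the regional pattern was not tested.

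Over all cells of a library, doublets included and before any class was named, Sgk1 was at 492 CPM in inner medulla and 17.2 CPM in cortex, a ratio of 28.6 (20.7 to 40.3), and Tsc22d3 at 179 against 34.4 CPM, a ratio of 5.19 (3.84 to 7.03). In this comparison 29.7% of genes were past 2-fold higher and 13.9% lower. Hsd11b2 was at 234 against 221 CPM, and principal cells made up 53.4% of inner medullary cells and 1.99% of cortical ones.

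Sgk1 UMIs were also counted outside the tubule. Endothelial cells, whose cluster also held the mural markers Rgs5 and Acta2, had 9, 13 and 14 UMIs in outer medulla, cortex and whole kidney 2, or 264, 255 and 355 CPM. Barcodes with under 100 genes, taken as free RNA, had 44.8, 26.9 and 27.5 CPM of Sgk1 in the same libraries. The free RNA share estimated from proximal markers was 126%, 108% and 84.5% in these endothelial cells, so that they held proximal markers about as often as those barcodes did. The endothelial Sgk1 level overlapped with that of principal cells (271 ± 246 CPM, SD, n = 4). Inner medullary thin limb had 12 UMIs, 234 CPM, while intercalated cells and thick ascending limb of the other 4 libraries had 1 UMI each. Tsc22d3 was the most widely spread, at 21.4 to 37.4 CPM in proximal tubule of the 4 libraries outside inner medulla and at 83.9 ± 24.0 CPM in their principal cells (SD, n = 4). With inner medulla included its highest proximal tubule value was 73.8 CPM.

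Related genes were taken from 6 lists of the pathway and 1 of stress genes. Of 8 potassium channel, sodium pump and WNK kinase genes, 7 were tested, and 4 were lower in principal cells than in connecting tubule, among them Wnk1 (-5.05 on the log2 scale), Wnk4 (-3.47) and Atp1b1, a sodium pump subunit (-0.80; edgeR adjusted p = 0.000247). Their median was -0.80, against -0.04 over all genes. The kinases made from Wnk1 and Wnk4 regulate sodium and potassium transport of the distal tubule.

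In distal convoluted tubule minus thick ascending limb, 3 of the 7 were higher: Wnk1 by 2.82, Wnk4 by 1.30 and the potassium channel gene Kcnj1 by 1.02 on the log2 scale. DESeq2 called Wnk1 and Kcnj1 there but not Wnk4 (edgeR adjusted p = 0.0417). In principal minus intercalated cells, Kcnj1 (3.78) and Stk39 (1.53) were higher and Wnk1 (-2.13) was lower. Every one passed edgeR's quasi-likelihood test with Benjamini-Hochberg adjustment.

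The other pathway lists held few calls. Of the channel turnover list, 8 of 9 genes were tested; Usp2, a deubiquitinase of the channel, was lower in principal cells than in connecting tubule (-1.92 on the log2 scale; edgeR adjusted p = 4.56e-06), and Rab11a was 1.13 higher in distal convoluted tubule than in thick ascending limb (edgeR adjusted p = 0.0372), which DESeq2 did not call. Of the 5 proteases and inhibitors tested out of 6, Spint2, a serine protease inhibitor, was lower in connecting than in distal convoluted tubule (-0.99 on the log2 scale; edgeR adjusted p = 0.000153). Of 5 kinases upstream of Sgk1 tested out of 6, Rictor passed in 1 contrast on low counts and had no adjusted p in DESeq2.

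None of the 6 receptor partners and enzymes passed edgeR's quasi-likelihood test in any of the 4 contrasts. At an unadjusted p under 0.05 they gave 1 gene in connecting minus distal convoluted tubule, 1 in principal cells minus connecting tubule, 2 in distal convoluted tubule minus thick ascending limb and 0 in principal minus intercalated cells, and DESeq2 called the first of these, the chaperone gene Hsp90ab1 (0.45 in edgeR's fit). None of the 4 corticosteroid-induced genes tested out of 6 passed edgeR's test or DESeq2, and in the same order of contrasts 1, 2, 0 and 3 had an unadjusted p under 0.05. Of the 9 immediate early and stress genes tested out of 15, Ier3 passed in 2 contrasts, at -3.76 in principal cells minus connecting tubule and 2.61 in distal convoluted tubule minus thick ascending limb. These lists were chosen with earlier results of these data known, and their counts are descriptions.

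By region, the potassium channel gene Kcnj1 was also low in inner medulla. As above, these ratios compare mostly different clusters of the principal class. It had 3 UMIs in inner medullary principal cells and 95 in outer medullary ones, 9.91 against 1161 CPM, and was 117-fold lower (38.9 to 578). Spint2 was 2.29-fold higher in inner medulla (1.75 to 3.03), and the chaperone gene Hsp90aa1, a receptor partner, 2.45-fold higher (1.66 to 3.76). Of the corticosteroid-induced list, 1 gene of 6 was measured, Klf9. Its ratio of inner to outer medulla was 1.22 (0.492 to 3.6), and against cortex it was 2.06-fold lower in inner medulla (0.810 to 4.67).

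Across the 31 class-by-library sums, with 5976 genes compared, the 4 profiles most like that of Scnn1a by Pearson correlation included Efhd1 (r = 0.91), Defb1 and S100a1. Scnn1b and Hsd11b2 were each most like the other (0.91). For Scnn1g the order was Kcne1 (0.95), Hsd11b2, Stc1 and Scnn1b (0.87), and for Hsd11b2 it was Scnn1b, Scnn1g, Kcne1 and Aqp3. Scnn1a was less like its partner subunits, at 0.50 with Scnn1b and 0.30 with Scnn1g.

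Sgk1 was most like AU021092 (0.86), Arhgdib, Anxa1 and Camkk2, and Tsc22d3 was most like Gnai2 (0.74), Naa15, AU021092 and Sgk1 (0.72). Nedd4l had Enpp5 (0.71), B830017H08Rik, Gipc1 and Coa3. The sums share libraries, depth and free RNA, so these values describe likeness of level only. Nr3c2 was under the 100 CPM asked for in this measure.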

How the data were processed

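The libraries were made by Drop-seq and sequenced on an Illumina NextSeq 500, per the labels' protocols. The deposited tables hold UMI counts, whole numbers with no normalization, for each gene symbol in each cell barcode, and the submitters' processing notes name mm9 and Seurat 2.3.1 without a role. For the aligner, the annotation and barcode correction, the sources used here name nothing. The 8 genes and the related lists were chosen with earlier results of these data known.

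Cells (at least 200 genes) were clustered with scanpy 1.11.5 and leidenalg 0.10.2 (2000 variable genes, 30 principal components, 15 neighbours, resolution 1.0), without integration of libraries. Scrublet marked 22 of 12121 cells (0.182%) as doublets, a share at which the caller cannot be said to have worked, so most doublets are still present. Clusters were named from fixed marker lists, and 1 cluster, led by H2-Aa, Cd74 and Lyz2, stayed unnamed. Counts were summed per class and library and scaled to 1000000 UMIs (CPM). Class contrasts used edgeR 4.0.16 (R 4.3.3), TMM and the quasi-likelihood test with library as a block, since the classes of a library share its animals and run. All classes that entered in the 4 libraries other than inner medulla shared 1 fit, with a minimum count of 2 and a minimum total of 15. That filter was chosen after gene levels were seen, because the default leaves 5 of the 8 genes. Residuals of the paired classes correlated at -0.0142 to 0.134. Benjamini-Hochberg adjustment ran over 7606 genes, and calls had an adjusted p under 0.05.

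Regions, with 1 library each, were compared by ratios of summed counts with exact conditional intervals (scipy 1.17.1), and a gene was called past 2-fold with at least 20 UMIs in the pair. Genes at 0 were set to a floor of 3 counts over the group. The genes named were the 8 members, up to 4 passing genes of each list and contrast, and the 4 genes most like each member by Pearson correlation of log2(CPM + 10). Regional values of other list genes were named after they were seen. Some genes that this rule names are not reported here. The edgeR script was tested on simulated data. DESeq2 1.42.0, other scalings, filters, clusterings and left-out libraries were tried as alternatives.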

Additional observations from a re-analysis of the deposited data

Results flagged for a closer look

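Barcodes with 100 to 199 detected genes lay under the minimum for a cell and entered no comparison, but each of the 8 genes was counted in them above the limit that a count of 0 allows. Of 2359424 UMIs in these barcodes over the 5 libraries, 105 were of Scnn1a, 63 of Scnn1b, 57 of Scnn1g, 499 of Hsd11b2, 6 of Nr3c2, 133 of Sgk1, 149 of Tsc22d3 and 67 of Nedd4l. Sgk1 stood at 235 CPM in those of inner medulla (44 UMIs) and at 24.9 CPM in those of cortex. Whether these UMIs came from small cells or free RNA was not tested.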

How the results depend on the processing

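No difference that passed its test, and no ratio past 2-fold, changed sign under an alternative that was run. Of the values for single genes, 506 kept their sign and side of the threshold or, with no test, stayed within their interval, 7 no longer passed, 3 newly passed, 5 with no test moved and 15 changed sign, and of the counts 149 stayed and 21 moved. The sign changes were in differences that did not pass. Over left-out libraries, connecting minus distal convoluted tubule gave -1.16 to 0.75 for Nedd4l and -0.71 to 0.20 for Tsc22d3 (0.021 in DESeq2), distal convoluted tubule minus thick ascending limb gave -1.42 to 1.00 for Hsd11b2, -0.72 to 3.81 for Sgk1 and -0.034 to 2.34 for Tsc22d3, and principal minus intercalated cells gave -0.024 to 0.85 for Nedd4l and -0.98 to 0.11 for Scnn1a (0.070 at the finer clustering). By marker score, Hsd11b2 and Sgk1 in distal convoluted tubule minus thick ascending limb were 0.82 and 0.50 (Sgk1 0.029 at the finer clustering), and Scnn1a in principal cells minus connecting tubule was 0.15. Counts of the 8 genes called over left-out libraries were 3 to 4 for connecting minus distal convoluted tubule, 2 to 3 for principal cells minus connecting tubule, 0 to 0 for distal convoluted tubule minus thick ascending limb and 4 to 4 for principal minus intercalated cells. Over all genes they were 201 to 335 (354 with every library), 204 to 300 (416), 167 to 229 (273) and 330 to 349 (517). The library block comes from the design, and without the replicate block the 8 genes gave 4, 3, 0 and 4 calls and all genes 312, 421, 286 and 515, so that it changed no count by over 1.5 times. With at least 500 genes a cell, connecting minus distal convoluted tubule gave 2 of 4 genes tested and 71 of all genes from 2 libraries. With classes from each cell's marker score the counts over all genes in the first 3 contrasts were 198, 655 and 110, and 5 of the 8 genes passed in principal cells minus connecting tubule. The finer clustering gave 232 genes there and removal of the highest doublet scores 222, with 165 in distal convoluted tubule minus thick ascending limb. With the members in the clustering, Tsc22d3 passed between principal and intercalated cells (3.53, edgeR adjusted p = 0.0343). None of the 8 genes was then past 2-fold between outer medulla and cortex in principal cells, and 1 was in connecting tubule. Removal of barcodes sharing 11 bases, chosen after seeing the data, also left 1. Without these changes 1 and 2 of the 4 members measured were past 2-fold, each lower in outer medulla. Of all genes measured, 5.65% and 12.9% were past 2-fold lower there and 8.2% and 6.55% higher. The cause of these shifts was not tested.

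The share of higher calls depended on scaling. Principal cells minus connecting tubule had 167 higher and 249 lower, but 306 and 136 with library totals alone and 177 and 143 in DESeq2, where the median over all genes was -0.04, 0.26 and 0.14. Distal convoluted tubule minus thick ascending limb had 155 and 118, but 114 and 172 with library totals and 93 and 135 in DESeq2. The 8 genes gave the same numbers of calls under each.

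Contrasts at 500 genes other than the one above, regional comparisons at 500 genes, and connecting tubule by region at the finer clustering or with doublet scores removed were not run, for lack of cells. Depth limits Nr3c2 most, at 21 UMIs in all cells.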

Other observations

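Other classes of inner medulla entered no comparison above and are given as values. Thin limb had its Sgk1 UMIs in 10 of 132 cells (234 CPM, 121 to 409) and 7 UMIs of Tsc22d3 (137 CPM, 55.0 to 282). Endothelial cells of inner medulla, with 35 cells below the minimum of UMIs for a class, had 8 UMIs of Sgk1 (551 CPM, 238 to 1086). Thick ascending limb of inner medulla had 3 UMIs of Sgk1 (44.1 CPM, 9.09 to 129) and 2 of Scnn1a (29.4 CPM). Intercalated cells of inner medulla, at 39 cells, had 3 UMIs of Nedd4l (150 CPM, 31.0 to 439). In thin limb of inner medulla the immediate early and stress list summed to 2090 CPM (1713 to 2526), next to 1823 CPM in principal cells of that library.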
